A study of Mus musculus with 6 samples.

Results

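The genes described here encode muscle proteins that respond to stretch and load: the ankyrin repeat proteins Ankrd1, Ankrd2 and Ankrd23, the four-and-a-half-LIM-domain (FHL) proteins Fhl1, Fhl2 and Fhl3, and the Xin actin-binding repeat proteins Xirp1 and Xirp2. They were taken from the heart expression table by gene symbol, with every probe of a matching symbol kept. Of the 8 genes asked for, 5 were found by symbol, with 7 of the 25697 probes of the table. Xirp1 was found under its earlier symbol Cmya1, with 1 further probe, and is reported beside the others. Fhl3 and Xirp2 were not analysed here.

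The hearts came from male FVB mice at postnatal day 6, with 3 hearts in each group, and their RNA was hybridised as biotin-labelled cRNA to 1-colour MouseRef-8 v2.0 BeadChips. hSRY-ON mice expressed FLAG-tagged human SRY, the testis-determining transcription factor, together with EGFP from the ubiquitous CAG promoter, out of a single transgene copy placed at the H11 locus, after Cre recombinase had removed a DsRed2 cassette. Cre came from the oocytes of Ddx4-Cre mothers, so that every tissue carried the recombined transgene, and the hSRY-ON animals used were those without Ddx4-Cre. hSRY-OFF hearts were the controls, described in the study's methods as carriers of the unrecombined transgene and elsewhere in its text as littermates without hSRY, so the genotype of these controls is not settled. The samples were labelled as separate hearts, and the p-values measure the spread between them.

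In striated muscle these proteins sit where force is carried. Ankrd1, Ankrd2 and Ankrd23 form the muscle ankyrin repeat family, which binds the elastic N2A region of titin in the I-band and also enters the nucleus, where Ankrd1 acts on transcription. FHL proteins are built of LIM domains, zinc-binding modules that hold protein partners, and link titin, integrins and signalling kinases, while Xirp proteins bind actin at the intercalated disc, the junction between heart muscle cells. Ankrd1 and Fhl1 are known to rise in hearts under pressure or volume load.

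Of the 25697 probes, 12970 were detected on at least 3 of the 6 arrays and were tested with limma on log2 intensities after background correction and quantile normalization. Between 47.2% and 51.3% of probes were detected on each array, and mean intensity ran from 631 to 939, with hSRY-OFF replicate 3 the dimmest. At an adjusted p under 0.05, 3567 probes were differentially expressed, 27.5% of those tested, of which 1788 (13.8% of those tested) were higher and 1779 (13.7%) lower in hSRY-ON hearts. The groups did not overlap for 45.2% of the tested probes. Fewer cells of a type and less RNA per cell cannot be told apart in these whole hearts.

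The FHL and ankyrin repeat genes each held one that fell and one that rose. Fhl2 and Ankrd23 were 7.90-fold and 7.24-fold lower in hSRY-ON hearts, and Xirp1 was 2.60-fold lower. Their relatives Fhl1 and Ankrd1 were higher, by 1.33-fold to 1.42-fold at the 2 Fhl1 probes and by 1.36-fold at the brighter Ankrd1 probe. Of the 6 tested probes found by symbol, 3 rose and 2 fell against the backgrounds of 13.8% and 13.7% given above, and 1, the dimmer Ankrd1 probe, did not pass the test. Their median log2 fold change was 0.42, with -0.0046 over all tested probes. This is a median over probes: Ankrd1 and Fhl1 each supply 2 of the 6, and Xirp1 (-1.38) is not among them. By gene, Fhl2, Ankrd23 and Xirp1 fell, and Ankrd1 and Fhl1 rose. Groups did not overlap for 5 of the 6 probes, against 45.2% of all tested probes. Of the 3 rising probes, 2 belong to Fhl1.

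**Figure D1:**
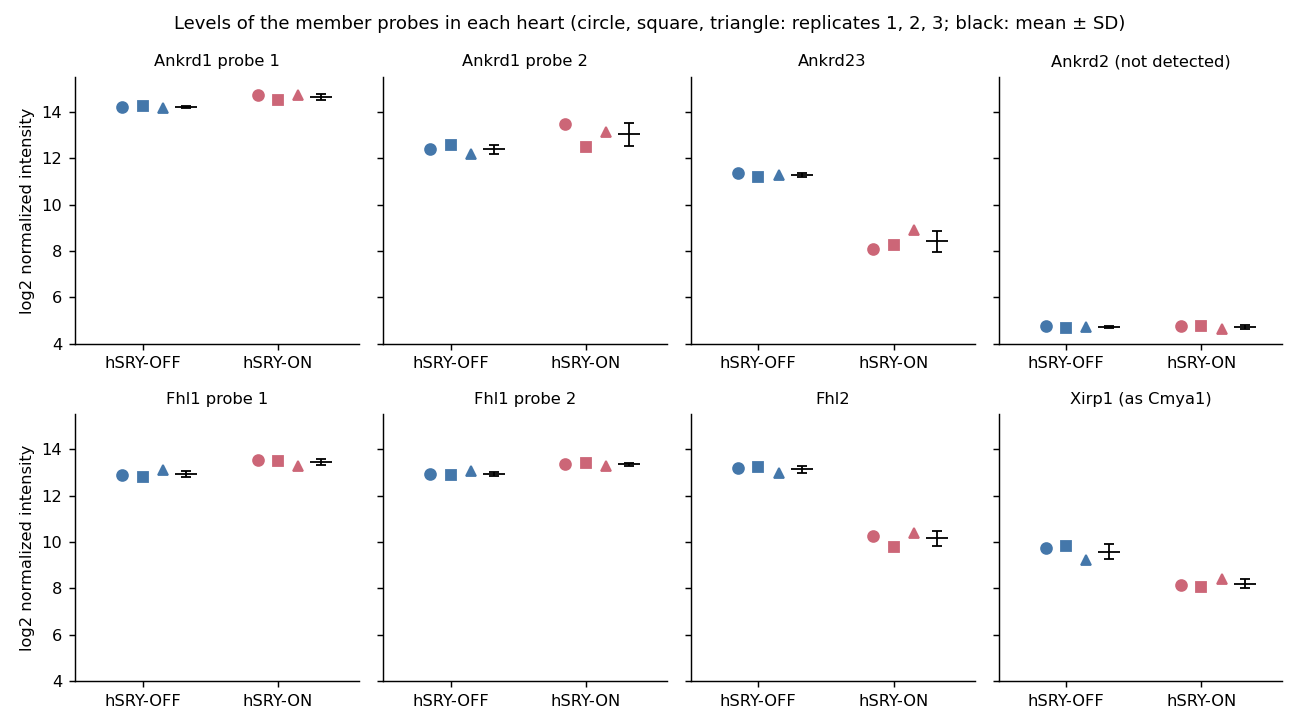
Log2 normalized intensity (vertical axis) of every probe of the genes in each heart, hSRY-OFF in blue and hSRY-ON in red, with circles, squares and triangles for replicates 1, 2 and 3 and black bars for mean ± SD. Fhl2 falls from a mean of 13.13 to 10.15 and Ankrd23 from 11.27 to 8.42, while the Ankrd1 and Fhl1 probes stay high in both groups.

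Promoters of Ankrd1, Ankrd23, Fhl2 and Fhl1 are shown here (that of Xirp1 was not analysed here) for the letters of the factors tied to this response: CATTCC, bound by TEAD factors, the partners of the stretch-sensed co-activator Yap1, and the CArG box, bound by serum response factor. Each line gives a window of 300 bases over an annotated start, most of it upstream, 5′ to 3′ on the gene's strand, from RefSeq on GRCm38.p6, and capitals mark a match on either strand.
Ankrd1, chr19:36119795-36120094, minus strand: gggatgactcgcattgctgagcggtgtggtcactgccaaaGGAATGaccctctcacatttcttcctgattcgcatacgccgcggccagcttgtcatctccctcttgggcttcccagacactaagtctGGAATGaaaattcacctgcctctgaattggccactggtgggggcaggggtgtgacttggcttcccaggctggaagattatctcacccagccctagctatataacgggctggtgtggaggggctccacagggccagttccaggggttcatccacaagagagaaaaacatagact
Ankrd23, chr1:36535690-36535989, minus strand: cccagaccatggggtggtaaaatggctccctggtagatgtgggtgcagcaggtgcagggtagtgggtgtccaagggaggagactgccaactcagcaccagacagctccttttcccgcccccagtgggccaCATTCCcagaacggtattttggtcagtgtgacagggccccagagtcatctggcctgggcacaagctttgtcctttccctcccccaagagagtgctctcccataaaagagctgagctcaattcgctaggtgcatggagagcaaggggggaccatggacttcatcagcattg
Fhl2, first start, chr1:43196712-43197011, minus strand: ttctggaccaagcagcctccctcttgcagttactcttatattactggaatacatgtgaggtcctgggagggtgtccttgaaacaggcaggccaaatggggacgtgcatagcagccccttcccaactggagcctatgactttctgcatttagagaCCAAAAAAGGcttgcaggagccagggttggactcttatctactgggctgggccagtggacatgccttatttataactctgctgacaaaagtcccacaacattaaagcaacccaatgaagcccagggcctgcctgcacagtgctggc
Fhl2, second start, chr1:43163912-43164211, minus strand: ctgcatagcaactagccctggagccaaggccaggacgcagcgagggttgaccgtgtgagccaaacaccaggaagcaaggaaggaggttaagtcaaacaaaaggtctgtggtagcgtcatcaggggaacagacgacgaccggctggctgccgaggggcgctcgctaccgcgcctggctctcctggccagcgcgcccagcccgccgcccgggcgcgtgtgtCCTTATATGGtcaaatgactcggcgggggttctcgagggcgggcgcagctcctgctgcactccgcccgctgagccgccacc
Fhl1, chrX:56779433-56779732, plus strand: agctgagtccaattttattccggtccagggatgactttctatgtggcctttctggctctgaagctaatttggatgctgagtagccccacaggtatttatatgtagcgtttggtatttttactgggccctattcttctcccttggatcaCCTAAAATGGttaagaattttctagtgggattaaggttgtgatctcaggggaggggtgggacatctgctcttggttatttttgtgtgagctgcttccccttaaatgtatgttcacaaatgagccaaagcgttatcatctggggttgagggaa

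CATTCC stood in the Ankrd1 window as its reverse complement GGAATG, from -210 to -205 and from -123 to -118 relative to the start. It stood in both Ankrd23 windows, from -120 to -115 in the one printed and from 37 to 42 in the other. A CArG box lay in each Fhl2 window, from -96 to -87 and from -31 to -22, and in one Fhl1 window, from -102 to -93. Of all 32851 promoter windows of this length, 14.7% held CATTCC and 1.63% a CArG box. Among the 10 windows of the genes described here, 3 held CATTCC and 3 a CArG box, each from 2 of 7 genes. Windows without a match are not printed. AACAAT, letters bound by SRY and SOX proteins, was in 10.7% of all windows and in 0 of the 10 windows of the 7 genes that have one. Only this exact string was searched, so other forms of the SRY and SOX site were not counted. Genes with the same letters moved in opposite directions, Ankrd1 and Ankrd23 for CATTCC, Fhl1 and Fhl2 for the CArG box. A match describes letters in the window and shows no binding, and a part of the motifs in the changes was not tested.

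Fhl2, which joins titin to metabolic enzymes and restrains growth signalling in heart muscle cells, showed the largest fall of these genes. Its log2 intensity was 13.21, 13.23 and 12.95 in the hSRY-OFF hearts and 10.26, 9.79 and 10.40 in the hSRY-ON hearts. Every hSRY-ON heart lay below every hSRY-OFF heart, and the gap between the groups was wider than the range within either. The mean was 13.13 ± 0.156 (SD, n = 3) in hSRY-OFF and 10.15 ± 0.320 (SD, n = 3) in hSRY-ON hearts. The log2 fold change was -2.98 (SE 0.18, 95% interval -3.41 to -2.56, limma adjusted p = 8.01e-05). By size this was rank 24 among the decreases, and 0.463% of tested probes changed by more in either direction. The deposited intensities, before any correction, were 6462 to 12115 for hSRY-OFF against 1021 to 1416 for hSRY-ON, so the groups stood apart without normalization.

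Ankrd23, also called diabetes-related ankyrin repeat protein, is the family member that binds titin and responds to metabolic as well as mechanical stress. Its log2 intensity was 11.37, 11.18 and 11.27 in hSRY-OFF hearts and 8.07, 8.26 and 8.92 in hSRY-ON hearts. The hSRY-OFF hearts lay close together, and hSRY-ON replicate 3 was the highest of the lower group. Means were 11.27 ± 0.097 and 8.42 ± 0.444 (SD, n = 3 each). The log2 fold change was -2.86 (SE 0.22, 95% interval -3.36 to -2.35, limma adjusted p = 0.000222), rank 29 among the decreases. Uncorrected intensities were 1999 to 3130 for hSRY-OFF against 376 to 580 for hSRY-ON.

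Xirp1, measured as Cmya1, cross-links actin filaments at the intercalated disc. Its log2 intensity was 9.72, 9.80 and 9.21 in hSRY-OFF hearts and 8.13, 8.07 and 8.41 in hSRY-ON hearts. The groups did not overlap, although the lowest hSRY-OFF heart, replicate 3, came within 1 log2 unit of the highest hSRY-ON heart, also a replicate 3. Means were 9.58 ± 0.323 and 8.20 ± 0.181 (SD, n = 3 each), and the log2 fold change was -1.38 (SE 0.19, 95% interval -1.81 to -0.94, limma adjusted p = 0.00194). This was rank 248 among the decreases, with 4.4% of tested probes changed by more.

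Ankrd1, also called cardiac ankyrin repeat protein, is a nuclear cofactor and titin partner that is strongly induced by load. At its brighter probe the log2 intensity was 14.22, 14.26 and 14.16 in hSRY-OFF hearts and 14.73, 14.49 and 14.73 in hSRY-ON hearts. All hSRY-ON hearts were above all hSRY-OFF hearts, with hSRY-ON replicate 2 nearest to them. The log2 fold change was 0.44 (SE 0.12, 95% interval 0.16 to 0.72, limma adjusted p = 0.0332).

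At the dimmer Ankrd1 probe the log2 intensity was 12.40, 12.57 and 12.17 in hSRY-OFF hearts and 13.48, 12.47 and 13.12 in hSRY-ON hearts. The groups overlapped here, because hSRY-ON replicate 2 lay below hSRY-OFF replicate 2. The log2 fold change was 0.64 (SE 0.25, 95% interval 0.05 to 1.23), larger than at the brighter probe, but it did not pass the test (limma adjusted p = 0.10). Both probes put hSRY-ON replicate 2 lowest of its group. Without that heart the dimmer probe passed at 0.93 (limma adjusted p = 0.0163). The call at the brighter probe was lost without any one of the other 5 hearts (0.39 to 0.47, adjusted p from 0.0627 to 0.114) and under scaling to the median of detected probes (0.39, adjusted p = 0.0729), scaling in the manner of TCC (0.38, adjusted p = 0.0876) and no normalization between arrays (0.18, adjusted p = 0.806). With a block for the replicate number the call at the brighter probe was lost as well (limma adjusted p = 0.0754). Uncorrected intensities of the brighter probe overlapped, 15907 to 24848 for hSRY-OFF against 20995 to 25040 for hSRY-ON.

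Fhl1, whose LIM domains bind titin and the growth kinases of the sarcomere, was measured by 2 probes. At the first its log2 intensity was 12.90, 12.81 and 13.09 in hSRY-OFF hearts and 13.52, 13.51 and 13.29 in hSRY-ON hearts. At the second it was 12.92, 12.87 and 13.04 in hSRY-OFF hearts and 13.36, 13.41 and 13.29 in hSRY-ON hearts. At both, every hSRY-ON heart was above every hSRY-OFF heart, the highest hSRY-OFF heart was replicate 3 and the lowest hSRY-ON heart was replicate 3. The log2 fold changes were 0.51 (SE 0.13, limma adjusted p = 0.0271) and 0.41 (SE 0.11, limma adjusted p = 0.0341), with 95% intervals of 0.20 to 0.81 and 0.14 to 0.67. The probes differed by less than either standard error. Both calls were lost when replicate 1 or replicate 2 of either group was left out, at 0.44 to 0.49 for the first probe and 0.37 to 0.40 for the second. Without hSRY-ON replicate 3 only the second was lost (0.44, adjusted p = 0.0558), and without normalization between arrays both were (0.36, adjusted p = 0.524, and 0.28, adjusted p = 0.647). A block for the replicate number also lost both (limma adjusted p = 0.0712 and 0.0815).

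Ankrd2, the ankyrin repeat protein of slow skeletal muscle, was not detected on any array. Its detection p-values ran from 0.288 to 0.574, and its log2 intensity stayed between 4.62 and 4.77, so no change could be measured.

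**Figure D2:**
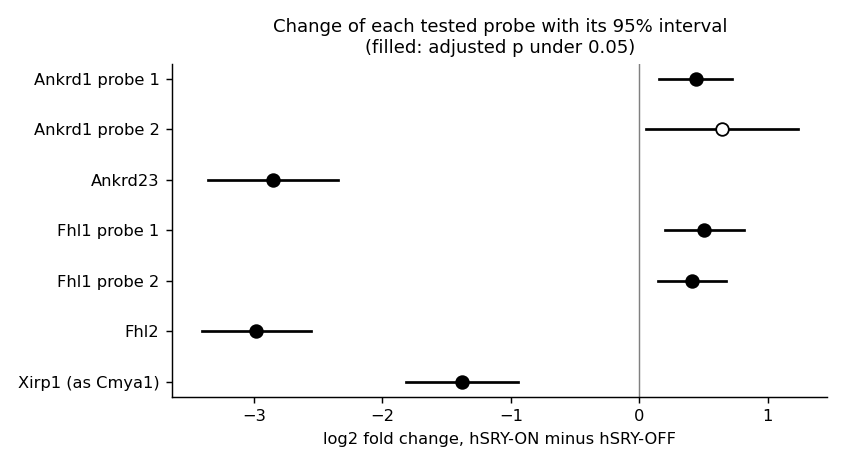
Log2 fold change, hSRY-ON minus hSRY-OFF (horizontal axis), of each tested probe with its 95% interval from limma, filled where the adjusted p was under 0.05. Fhl2 (-2.98), Ankrd23 (-2.86) and Xirp1 (-1.38) lie left of 0, and the intervals of the 4 probes to the right start between 0.05 and 0.20.

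The changes of relatives were then set against each other within each array. The log2 value of the brighter Ankrd1 probe minus that of Ankrd23 was 2.85, 3.09 and 2.89 in hSRY-OFF hearts and 6.66, 6.23 and 5.82 in hSRY-ON hearts. The value of the first Fhl1 probe minus that of Fhl2 was -0.31, -0.43 and 0.13 in hSRY-OFF hearts and 3.26, 3.72 and 2.88 in hSRY-ON hearts. Neither pair overlapped between the groups. The difference grew by 3.29 (SE 0.26) for Ankrd1 and Ankrd23 and by 3.49 (SE 0.30) for Fhl1 and Fhl2. The exact two-sided permutation test gave p = 0.1 for each, which is the smallest p that 3 hearts against 3 allow, and 0.1 after adjustment over the 2 pairs. Between probes only the change can be compared, not the level. With all hearts kept, the growth was 2.88 to 3.35 for the ankyrin repeat pair and 3.34 to 3.51 for the FHL pair under every alternative tried. Most of these alternatives could not move it. The filter, detection threshold, variance trend and replicate block leave the log2 values unchanged. Scaling shifts a whole array and cancels in the difference, so every setting without quantile normalization gave the same growth (3.14 and 3.47). Only the background, the offset and leaving out quantile normalization could change it.

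**Figure D3:**
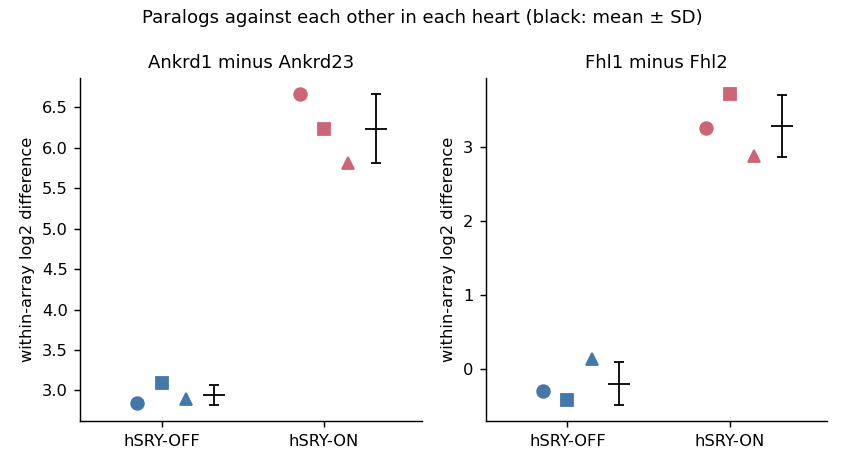
Within-array log2 difference (vertical axis) between Ankrd1 and Ankrd23 and between Fhl1 and Fhl2 in each heart, hSRY-OFF in blue and hSRY-ON in red, circles, squares and triangles for replicates 1, 2 and 3, black bars for mean ± SD. The means move from 2.94 to 6.24 and from -0.20 to 3.29, with no overlap; the axes do not start at 0.

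The order of replicates was partly shared across the genes. In hSRY-ON replicate 3 the 3 genes that fell stood highest of their group and both Fhl1 probes stood lowest, so this heart was the least changed of the 3 for Fhl1, Fhl2, Ankrd23 and Xirp1. In hSRY-OFF replicate 3, the dimmest array, Fhl2, Xirp1 and both Ankrd1 probes stood lowest and both Fhl1 probes highest, while Ankrd23 lay in the middle. hSRY-ON replicate 2 stood lowest for both Ankrd1 probes, Fhl2 and Xirp1, in the middle for Ankrd23 and highest at the second Fhl1 probe.

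The genes whose 6 values ran nearest to those of Fhl2, each gene centred on its hSRY-OFF mean, were Igsf1, the laminin receptor subunit Itga7, Txlnb, the growth factor Fgf16 and C1qtnf9. They differed from Fhl2 by a root mean square of 0.177 to 0.252 log2 units over the 6 hearts, and their log2 fold changes were -2.83 to -3.18. Within 0.5 log2 units of Fhl2 there were 42 probes. Around the first Fhl1 probe 7250 probes lay within that distance, so its nearest genes, Mfge8, Tmem33, Cast, BC017158 and Cc2d1b (0.0357 to 0.0495), were near a change that many probes share.

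Other LIM domain genes of muscle moved both ways, with 5 of 19 tested up, 3 down and a median log2 fold change of 0.03. Of these genes 42.1% were called, against 27.5% of all tested probes (13.8% up and 13.7% down). Pdlim4 rose most (2.95, SE 0.13, limma adjusted p = 2.74e-05), and Ldb3, which ties Z-disc proteins together, fell most (-1.34, SE 0.14, limma adjusted p = 0.000709). Csrp3, a mechanosensing partner at the Z-disc, fell at 2 of its 3 probes (-1.21, adjusted p = 0.0125, and -0.68, adjusted p = 0.0341), whereas the brightest gave -0.33 (adjusted p = 0.130). The call at -0.68 was lost in 6 of 17 alternatives, with no probe filter and without any one heart other than hSRY-ON replicate 3 (adjusted p up to 0.105). The further FHL genes Fhl4 and Fhl5 were not detected.

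Of 25 tested genes whose proteins bind the proteins described above, 5 rose and 7 fell, with a median of 0.13. The called share was 48%, against 27.5% of all tested probes. The 5 became 3 without any one heart other than hSRY-OFF replicate 3, and the 7 became 3 without replicate 1 of either group or hSRY-OFF replicate 2 and 4 without hSRY-ON replicate 3. Tcap, the cap of titin at the Z-disc, fell most, from 12.44 to 9.34 (log2 fold change -3.10, SE 0.32, limma adjusted p = 0.000748). Itga7, the integrin subunit bound by FHL proteins, fell by 2.86 (SE 0.16, limma adjusted p = 6.04e-05), close to Fhl2 itself. Trim63, named after its value was seen, is a muscle ubiquitin ligase that binds titin and gave -1.79. Cobl had the largest increase (2.02, SE 0.21), but it was detected in 1 of 3 hSRY-OFF hearts. Titin (Ttn), the common partner, did not pass the test (-0.21, adjusted p = 0.230).

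Of 18 tested upstream regulators 4 rose and 2 fell, with a median of -0.19. Their called share was 33.3%, against 27.5% of all tested probes. The 4 became 2 without hSRY-OFF replicate 1 or any one hSRY-ON heart and 1 without normalization between arrays, and the 2 became 1 without hSRY-OFF replicate 2 or hSRY-ON replicate 1 or 2. The co-activator Yap1 rose (0.66, SE 0.14, limma adjusted p = 0.0115, but 0.231 without normalization between arrays), as did Tbx5 (1.09, adjusted p = 0.0282). The transcriptional repressor Hey2 fell (-0.79, adjusted p = 0.00823). The Tbx5 call was lost with no probe filter and in 5 of the 6 fits that left out a heart. Srf gave -0.15 (adjusted p = 0.528), and Tead1 was not detected.

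Among 12 tested targets of YAP and TEAD, the class in which Ankrd1 is usually counted, 6 rose and 0 fell, with a median of 0.62. Over all tested probes 13.8% rose and 13.7% fell. Nt5e had the largest increase (1.87, SE 0.15), Ctgf rose 2.82-fold (log2 SE 0.20, limma adjusted p = 0.00199), and Cyr61 gave 0.64 (adjusted p = 0.127). The 6 became 2 without normalization between arrays and 3 without hSRY-OFF replicate 3 or hSRY-ON replicate 1. The 0 became 1 with a block for the replicate number and without hSRY-OFF replicate 1 or hSRY-ON replicate 3. Among 17 tested targets of SRF and its MRTF partners, which include actin genes, 4 rose and 1 fell, with a median of 0.20. Their called share of 29.4% was near the 27.5% of all tested probes. Tagln rose most (1.81, SE 0.34), and the skeletal actin gene Acta1 fell by 3.25 (SE 0.28, limma adjusted p = 0.000389).

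Among 21 tested load and stretch response genes 4 rose and 5 fell, with a median of 0.07, and the 5 became 3 without hSRY-OFF replicate 1. The called share was 42.9%, against 27.5% of all tested probes. Timp1, an inhibitor of matrix proteases, rose most (3.17, SE 0.14), and the fall of Acta1 was the largest decrease. Next among the rises were Myh7 (2.94, limma adjusted p = 8.25e-05) and Edn1 (1.58, limma adjusted p = 0.021). Next among the falls were Murc (-2.53, limma adjusted p = 0.000493) and Gdf15 (-1.55, limma adjusted p = 0.00728), the latter detected in 2 of 3 hSRY-ON hearts. Nppa and Nppb, the natriuretic peptides used as markers of load, gave 0.14 (adjusted p = 0.349) and 0.47 (adjusted p = 0.329). The Nppa probe was near the top of the scale in both groups (15.28 and 15.42), with the same value in all 3 hSRY-ON hearts after quantile normalization, so a rise of Nppa could hardly be measured. Nppb passed without hSRY-ON replicate 2 (0.91, adjusted p = 0.00877), the same heart that was lowest for Ankrd1.

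**Figure D4:**
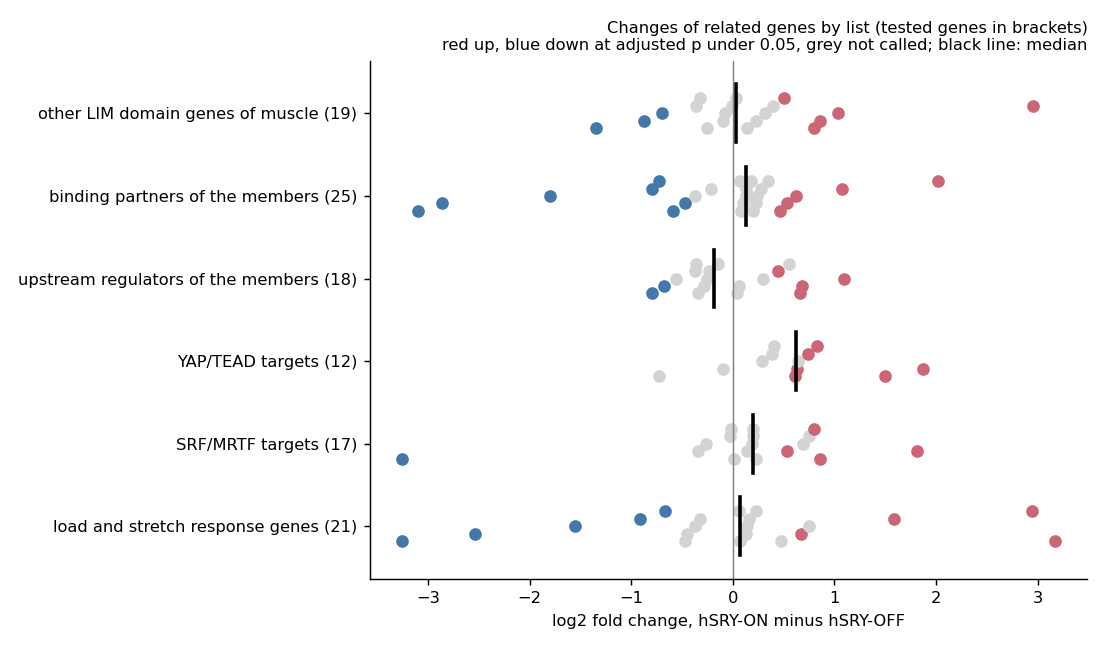
Log2 fold change, hSRY-ON minus hSRY-OFF (horizontal axis), of each tested gene in 6 lists of related genes, red if up-regulated and blue if down-regulated at an adjusted p under 0.05, grey otherwise, with a black line at the median. The YAP/TEAD targets, 12 genes, have no gene in blue and a median of 0.62, and the other lists hold both colours.

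Cell type markers moved with the groups, and their part in the results was not tested. Their counts stand beside 13.8% up and 13.7% down over all tested probes. Cardiac muscle markers were present in every heart, with 1 of 14 up and 6 down, and their summed intensity after normalization lay between 305190 and 317670 for hSRY-OFF against 260180 and 290730 for hSRY-ON, a ratio of 0.866. Among them, at the brightest probe of each gene, Nkx2-5 rose (0.68) and the calcium pump regulator Pln fell most (-1.47). A dimmer probe of Myh6 fell further (-1.97, limma adjusted p = 0.00154), against -0.51 at the brightest Myh6 probe. Leukocyte markers, 6 of 8 up and led by Cd14 (1.30), summed to 3637 to 4880 and 8700 to 9263, a ratio of 2.03. Skeletal muscle markers, 2 of 11 up and 7 down, had a median log2 fold change of -0.90 but a summed ratio of 1.36, with Tnnt1 up by 3.51 and Casq1 at -3.32. The sum rose with Tnnt1 (means of 11.3 and 14.8), while Ckm, the brightest of the list in hSRY-OFF hearts, fell (14.1 and 13.2). Myod1 and the fast myosin genes Myh1, Myh2 and Myh4 were not tested for want of detection, so the list does not measure skeletal muscle content. Smooth muscle and pericyte markers gave 2 of 10 up, led by Tagln, and 2 down, led by Smtn at -1.47 (ratio 1.16). Fibroblast markers gave 1 of 9 up, Tcf21 at 0.76, and 0 down (ratio 0.949). That 0 became up to 3 under the alternatives with all hearts and up to 2 with a heart left out. A dimmer Dcn probe fell (-0.90, limma adjusted p = 0.0108), against -0.30 at the brightest Dcn probe (limma adjusted p = 0.150). Endothelial markers gave 3 of 11 up and 4 down, with Vwf at 1.32 and Cldn5 at -1.48 (ratio 0.963). Of 6 erythroid markers 1 fell, Hbb-b1 at -1.29 (ratio 0.957), and of 4 fat markers 2 rose, led by Ucp1 at 3.67, whose groups overlapped (ratio 1.07). The summed cardiac signal is carried by probes near the top of the scale, such as Myl2 (means of 15.38 and 15.37), where quantile normalization leaves little room to move. With 1 heart left out, the 6 falling cardiac markers became 3 without replicate 1 or 2 of either group, the 4 falling endothelial markers 2 without replicate 1 of either group or hSRY-OFF replicate 2, and the 2 rising smooth muscle markers 1 without those same hearts. The 2 falling smooth muscle markers became 1 without hSRY-OFF replicate 2 or hSRY-ON replicate 1 or 3, and the rising fibroblast marker was lost without hSRY-OFF replicate 1. The 2 rising fat markers became 0 without replicate 1 of either group or hSRY-OFF replicate 2 and 1 without hSRY-ON replicate 2 or 3, and the Ucp1 call was lost in 7 of 16 alternatives (2.14 to 5.07, adjusted p up to 0.117).

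**Figure D5:**
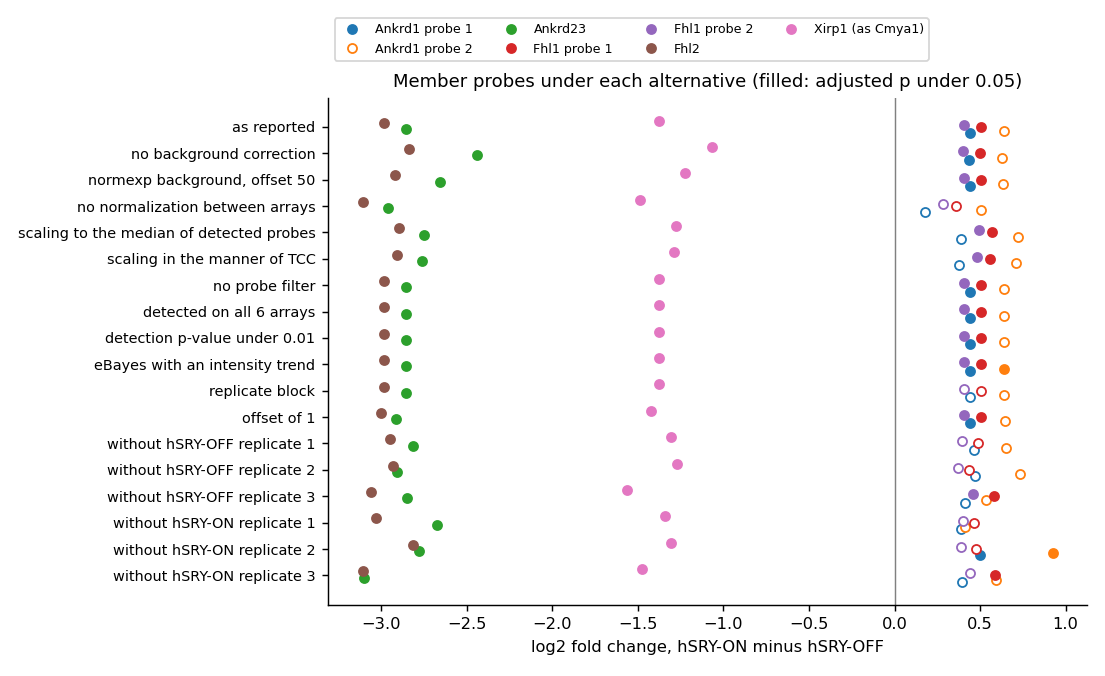
Log2 fold change, hSRY-ON minus hSRY-OFF (horizontal axis), of each tested probe as reported and under 17 alternatives (vertical axis), filled where the adjusted p was under 0.05. Fhl2 stays between -3.11 and -2.81, Ankrd23 between -3.10 and -2.44 and Xirp1 between -1.56 and -1.07, filled throughout, whereas the Ankrd1 and Fhl1 probes stay right of 0 but lose their fill in several rows.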

How the data were processed

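Hearts of 3 hSRY-ON and 3 hSRY-OFF mice were compared. The authors deposited non-normalized bead intensities of the MouseRef-8 v2.0 array, and the deposited table gives a detection p-value beside each. Their methods name TCC without settings. TCC was not installed, so scaling in its manner was an alternative. The intensities were background-corrected and quantile-normalized by neqc (limma 3.58.1, R 4.3.3, offset 16), with negative controls inferred from the detection p-values, and taken to log2. A probe was tested if detected at p under 0.05 on 3 of 6 arrays. lmFit and eBayes were run without covariates, with Benjamini-Hochberg adjustment over 12970 probes, and the code was tested on simulated data.

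The array has no counts, so the number of arrays limits the precision. Related genes were taken at their brightest tested probe. Symbols were updated through RefSeq synonyms. The genes, motifs and lists were chosen with earlier results of these data known, and the lists are no independent support. Named were all members, the called gene with the largest rise and fall of each list, Srf, Yap1, Tead1, Ttn, Csrp3, Nppa, Nppb, Acta1, Ctgf and Cyr61, and the 5 genes nearest to the members with the largest rise and fall. Fhl4, Fhl5, Trim63, Myh6, Myh7, Edn1, Murc, Gdf15, Dcn and Ckm, and Itga7 among binding partners, were added after their values were seen. Alternatives changed the background, normalization, filter, offset, variance trend and replicate block, or left out a heart. Figures were drawn with matplotlib 3.10.9.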

Additional observations from a re-analysis of the deposited data

How the results depend on the processing

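Fhl2, Ankrd23 and Xirp1 kept their direction and their call under all 17 alternatives, and no member probe changed direction under any of them. The number of member probes differentially expressed fell from 5 to 2 without normalization between arrays and to 2 to 4 when a heart was left out, and of the 3 up-regulated probes 0 passed without normalization and 0 to 2 without a heart. The 2 down-regulated probes passed throughout. Without normalization between arrays every tested member probe had the same standard error, 0.303. The p-values of that setting therefore do not reflect each probe's own spread between hearts. Over all tested probes the count of 3567 became 1897 without normalization and 2239 to 3714 without a heart, lowest without hSRY-OFF replicate 1, and the genes of the lists fell from 77 to 51 and to 51 to 71, lowest without hSRY-ON replicate 1. The share of up-regulated among differentially expressed probes was 50.1%, but 65.7% with median scaling, 60.9% with scaling in the manner of TCC and 38.5% without normalization. The calls of the small rises of Ankrd1 and Fhl1 depend on single hearts, though the rises stayed positive: with a heart left out they were 0.39 to 0.50 at the brighter Ankrd1 probe and 0.44 to 0.58 and 0.37 to 0.46 at the Fhl1 probes. Ankrd2 was not above background, so nothing can be said of its change.

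Same-numbered hearts did not deviate together (residual correlations -0.025, 0.038 and -0.066). No pairing by number was seen, but these correlations cannot exclude one. With the replicate block 2 member probes passed, 0 of them up-regulated, and 2842 of all probes.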
